A study of Mus musculus with 15 samples.

Results

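Collagens are triple-helical proteins of the extracellular matrix, and their genes were taken here as every gene whose symbol is Col, a type number, the letter a and a chain number. That rule found 43 genes among the 37681 in the deposited count table. The 43 comprise 11 fibrillar chains, 6 chains of the basement membrane, 6 beaded-filament chains, 9 chains of the fibril-associated group (FACIT), 2 multiplexins, 4 transmembrane chains, 3 short-chain network chains, the anchoring-fibril chain Col7a1 and Col28a1, which was left outside these classes.

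The study dosed adult male wildtype C57BL/6 mice, 10 to 12 weeks old, by oral gavage and sequenced polyadenylated RNA of the thoracic aorta. One group received celecoxib at 30 mg/kg and another rofecoxib at 10 mg/kg, both inhibitors of cyclooxygenase-2, and the third received only the vehicle, PEG-400, a liquid polymer used as a solvent. Each group holds 5 libraries, the gavage volume was 100 uL, and the tissue was taken 6 h after the dose at ZT11, that is, 11 h after lights on. All 3 groups therefore shared genotype, sex, gavage, solvent and hour of collection.

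Collagen chains assemble in threes in the endoplasmic reticulum, after hydroxylation of proline and lysine, and fibrillar procollagens are trimmed and crosslinked outside the cell. In the wall of the aorta, fibres of collagen types I and III bear load together with elastin, type IV networks surround smooth muscle cells and underlie the endothelium, and type VI filaments lie between cells and fibres. Smooth muscle cells and adventitial fibroblasts are their known sources there.

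The deposited counts summed to between 30937046 and 30967115 per library, so depth is nearly equal in the files, and its value before deposit is unknown. Defining smooth muscle markers were abundant in every library, with Acta2 between 14131 and 23663 CPM (counts scaled to library size) and Myh11 between 9687 and 13119 CPM. Summed levels of 5 brown adipocyte markers ran from 346 to 1486 CPM in the vehicle group, from 64.7 to 472 in the celecoxib group and from 170 to 411 in the rofecoxib group, with the uncoupling protein gene Ucp1 between 6.63 and 996 CPM. Summed levels of 3 Schwann cell markers lay between 10.6 and 188 CPM. The part that these other cells play in the collagen values was not tested beyond the values given below, and in bulk tissue fewer cells of a type cannot be told apart from less RNA per cell. Celecoxib 1 stood apart from its group: its chi-square per gene against each of the other 4 celecoxib libraries was 61.8 to 92.4, beside 13.1 to 51.0 for every other pair of libraries within a group. Several values that rest on it, though not all, are also given without it.

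Collagen transcripts made up between 2.09% and 2.84% of all counts in the 15 libraries. The share in the vehicle libraries 1 to 5 was 2.64%, 2.76%, 2.29%, 2.36% and 2.18%. In the celecoxib libraries it was 2.41%, 2.84%, 2.09%, 2.27% and 2.73%, so this group held both the highest and the lowest value of the study. In the rofecoxib libraries it was 2.60%, 2.46%, 2.45%, 2.38% and 2.30%. The group means were 2.45% ± 0.244 for vehicle, 2.47% ± 0.313 for celecoxib and 2.44% ± 0.11 for rofecoxib (SD, n = 5 each), and the means differed by less than the spread within any group. Col1a1, Col1a2 and Col3a1 together supplied between 36.4% and 48.2% of the collagen counts.

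**Figure D1:**
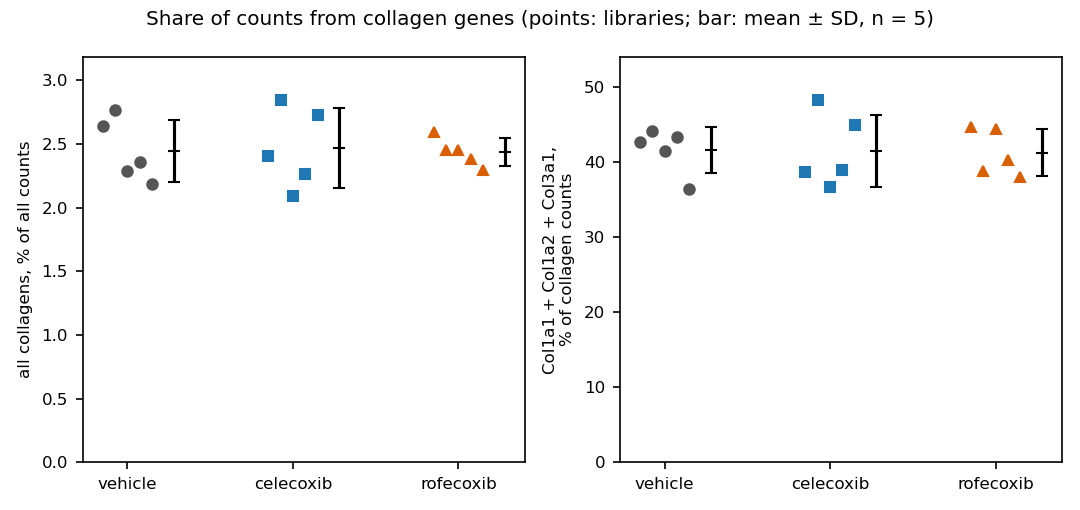
Share of all counts that came from collagen genes (left) and share of collagen counts that came from Col1a1, Col1a2 and Col3a1 (right), in percent, by group. Each point is 1 library and each bar the mean ± SD (n = 5); the 3 groups overlap in both panels, and celecoxib 2 is highest in both, at 2.84% and 48.2%.

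Levels were compared between genes only as CPM per kb of transcript. The members fell into a higher and a lower tier on this scale. The higher held 15 members, from Col1a2 at 765 ± 100 CPM per kb down to Col14a1 at 44.4 ± 7.14 (SD over all n = 15 libraries), and the next member, Col16a1, lay at 12.5 ± 1.93. These 15 genes supplied between 98.2% and 99% of collagen counts. The same 15 genes were the highest by coding length and by the merged length of all exons, although the order inside the tier moved. Merged exons were the length tried first, and the transcript length replaced them after the lengths were seen. With merged exons Col18a1 was first at 502 CPM per kb, ahead of Col3a1 at 421, Col1a2 at 329 and Col1a1 at 303.

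Among the fibrillar chains, Col1a2 and Col3a1 led, at 765 ± 100 and 743 ± 149 CPM per kb. They encode the second chain of type I collagen and the single chain of type III, and their order did not hold in every library: Col1a2 exceeded Col3a1 in 10 of 15. Col1a1, the first chain of type I, followed at 335 ± 63.5 CPM per kb. Col5a2 and Col5a1, whose type V product sits inside type I fibrils, lay at 117 ± 7.97 and 96.8 ± 8.12 CPM per kb, with Col5a2 above Col5a1 in 15 of 15 libraries, an order that turned with merged exons (81.1 and 95.8 CPM per kb). The remaining fibrillar chains were far lower, with Col27a1 at 7.99, Col5a3 at 3.08, Col11a2 at 1.64, Col11a1 at 0.302, Col2a1 at 0.217 and Col24a1 at 0.0427 CPM per kb. Col2a1 and Col11a1, known from cartilage, were thus near the bottom of the family.

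The basement membrane chains fell into 3 pairs. Col4a1 and Col4a2, the chains of the common type IV network, stood at 290 ± 31.8 and 257 ± 23.1 CPM per kb. Col4a5 and Col4a6, which form a further type IV network known from smooth muscle, stood at 127 ± 10.2 and 73.2 ± 4.91. Col4a3 and Col4a4, best known from the kidney's filtration membrane, were present at only 3.39 ± 0.639 and 2.08 ± 0.315 CPM per kb. The multiplexin Col18a1, a heparan sulfate-bearing collagen of vascular basement membranes and the source of endostatin, was the third highest member at 630 ± 50 CPM per kb, and Col15a1, its relative, lay at 133 ± 22.2. Col18a1 exceeded Col1a1 in 15 of 15 libraries, on the coding-length scale too. Its locus overlaps Slc19a1 in the deposited coordinates, and the use of strand in counting is not given in the sources used here.

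The beaded-filament chains Col6a2, Col6a1 and Col6a3 were measured at 279 ± 21.5, 249 ± 19.8 and 88.4 ± 10.4 CPM per kb. Their relatives Col6a6, Col6a5 and Col6a4 were at 1.21, 0.412 and 0.11. Of the FACIT chains, which decorate fibrils, only Col14a1 was in the higher tier, with Col16a1 next and Col12a1 at 2.19 CPM per kb. Col8a1, a chain of the short-chain type VIII network made by endothelium and by injured smooth muscle, was at 6.33 ± 2.09 and its partner Col8a2 at 1.07 ± 0.264. Col17a1, Col25a1, Col9a1 and Col9a2 failed the filter on low counts and were not tested. Col25a1 had no count in 6 libraries, where 0 counts allow up to 3 by counting error, and reached at most 4 counts, and Col17a1 at most 6.

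**Figure D2:**
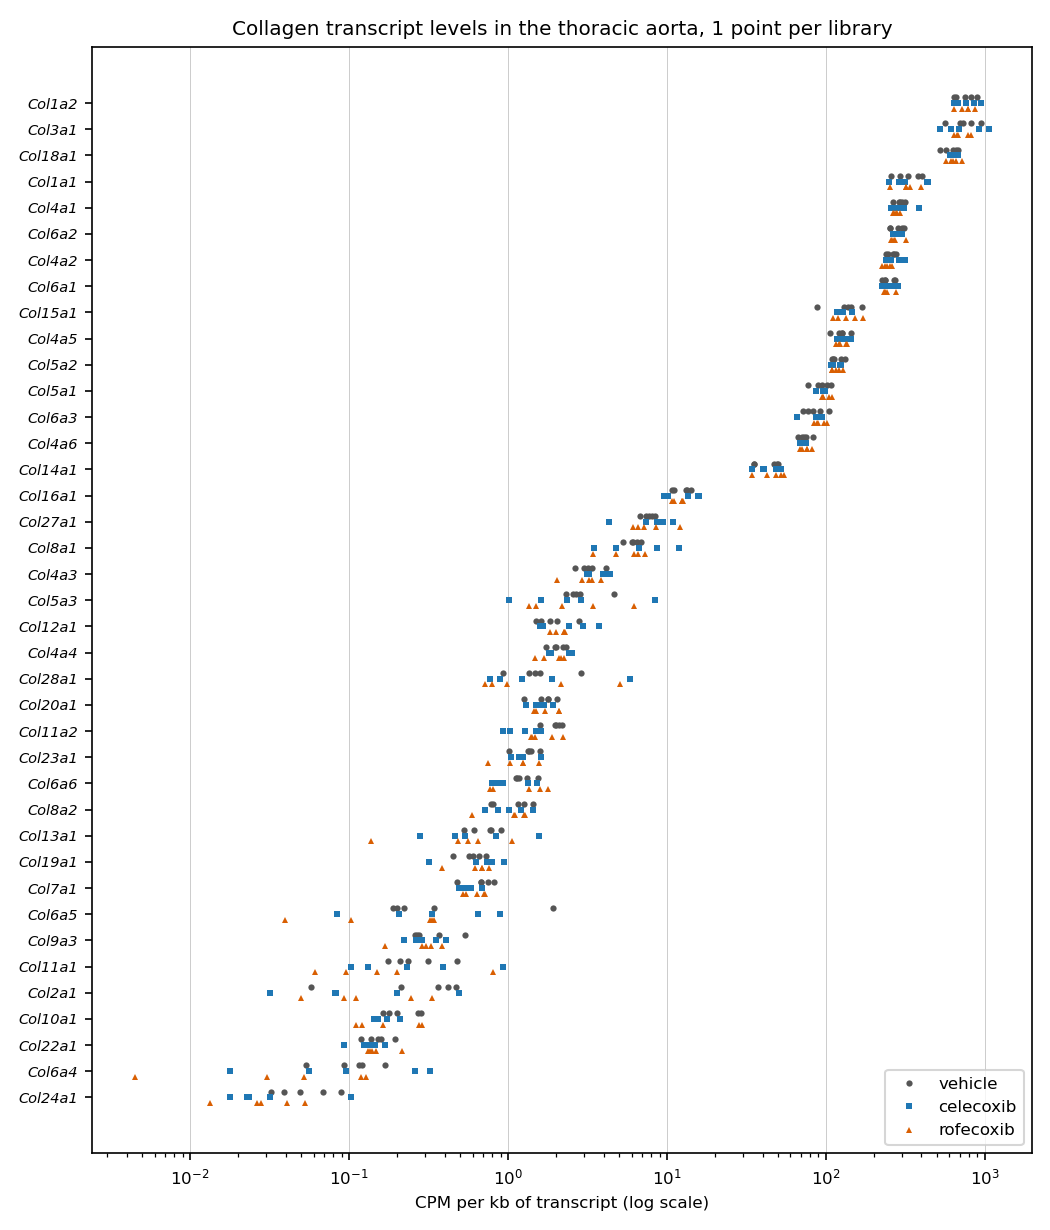
CPM per kb of transcript (log axis) for the 39 collagen genes that passed the filter, ordered by their mean, with 1 point per library and 5 libraries per group. The 15 genes at the top form narrow bands and lie above every point of the other 24, from Col14a1 at a mean of 44.4 upwards, and several genes below them spread widely.

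Among the 15 members of the higher tier, the highest library was between 1.23 and 2.05 times the lowest, and for 14 of them it was under 2 times. The SD within groups on the log2 scale was below the median of all tested genes (0.177) for 9 of the 15 and above it for the other 6, which were Col3a1 (0.306), Col1a1 (0.292), Col15a1 (0.262), Col14a1 (0.254), Col1a2 (0.202) and Col6a3 (0.185). Col5a2 had the narrowest range, from 713 to 876 CPM, and Col3a1 the widest, from 2893 CPM in celecoxib 3 to 5941 CPM in celecoxib 2. Col1a1 moved with it. In the vehicle libraries 1 to 5, Col1a1 was at 2256, 2395, 1729, 1959 and 1524 CPM, in the celecoxib libraries at 1869.7, 2619.5, 1491, 1718 and 2570.1 CPM, and in the rofecoxib libraries at 2369, 1887, 2008, 1895 and 1512 CPM. The lowest library of each group lay between 1491 and 1524 CPM, and the groups overlapped throughout.

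Related chains offered 9 pairs in which a ratio could be followed across libraries (log2 CPM, n = 15, Pearson's r and Spearman's rho with permutation p-values adjusted over the 9 pairs by Benjamini-Hochberg; the points of a pair share a library and its scaling factor). Col1a1 and Col1a2 had r = 0.967 and rho = 0.936 (raw permutation p = 1e-05 for both, adjusted p = 2.25e-05 and 4.5e-05). A raw p of 1e-05 is the smallest that 100000 permutations can give. Their r was 0.966 without celecoxib 2 and celecoxib 5, the 2 libraries farthest from the median. The ratio of Col1a1 to Col1a2 per kb stayed between 0.393 and 0.505 while Col1a1 itself ranged 1.76-fold. The usual type I trimer holds more chains of Col1a1 than of Col1a2, and the Col1a1 level per kb was below that of Col1a2 in every library; with merged exons the means were close, at 303 and 329 CPM per kb. Col3a1 and Col1a1, products of separate trimers, were as close, with r = 0.947 and rho = 0.954 (permutation p = 1e-05 for both, adjusted p = 2.25e-05 and 4.5e-05). Their r was 0.934 without celecoxib 2 and vehicle 2.

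The 3 type IV pairs each lie head to head on one chromosome, and their counts did not behave alike. In the deposited mm9 coordinates Col4a1 (chr8:11198221-11313028) and Col4a2 (chr8:11312603-11449489) overlap by 426 bases, and Col4a4 (chr1:82447096-82583626) and Col4a3 (chr1:82583294-82718836) by 333 bases. Col4a6 (chrX:137599744-137908821) and Col4a5 (chrX:137909726-138123980) are separated by 904 bases. The short stretches at which the first 2 pairs meet are shown because both genes of a pair start there; they are from RefSeq (GRCm38.p6, plus strand), whose starts differ from those of the deposited table. For Col4a1 and Col4a2 these are the bases shared by both first exons (chr8:11312805-11312826), and for Col4a4 and Col4a3 the bases between the 2 starts (chr1:82586850-82586920). In that last stretch the Col4a4 start is from RefSeq and the Col4a3 start from GENCODE M21, so its length depends on both annotations.
Col4a1/Col4a2: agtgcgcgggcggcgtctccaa
Col4a4/Col4a3: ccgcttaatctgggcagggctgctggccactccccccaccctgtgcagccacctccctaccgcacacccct

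Col4a1 and Col4a2 varied together across libraries, with r = 0.935 and rho = 0.925 (permutation p = 1e-05 and 2e-05, adjusted p = 2.25e-05 and 4.5e-05), and r = 0.907 without celecoxib 1 and celecoxib 3. Their ratio per kb stayed between 1.08 and 1.22. Col4a3 and Col4a4 did so too, with r = 0.917 and rho = 0.925 (permutation p = 1e-05 and 2e-05, adjusted p = 2.25e-05 and 4.5e-05), and r = 0.858 without rofecoxib 5 and celecoxib 1. For Col4a5 and Col4a6 the values were r = 0.13 and rho = 0.129 (permutation p = 0.643 and 0.65, adjusted p = 0.643 and 0.65). Neither chain of this last pair ranged widely, Col4a5 over 1.35-fold and Col4a6 over 1.24-fold, whereas Col4a3 ranged 2.15-fold and Col4a1 1.49-fold, and the difference between the pairs' correlations was not tested. Where genes of a pair overlap and strand use is unknown, reads from the overlap could be counted for either gene.

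Type VI showed 2 chains in step, Col6a1 and Col6a2, and a weaker relation of Col6a3 to Col6a1 over all 15 libraries. Col6a1 and Col6a2 had r = 0.902 and rho = 0.839 (permutation p = 2e-05 and 0.00026, adjusted p = 3.6e-05 and 0.000468), and a ratio per kb between 0.835 and 0.944. Col6a3 against Col6a1 had r = 0.15 and rho = 0.339 (permutation p = 0.596 and 0.214, adjusted p = 0.643 and 0.241). The low r depended on few libraries, since it was 0.726 with celecoxib 1 and vehicle 3 both left out. Leaving out only 1 of them was not tried. In the celecoxib libraries 1 to 5, Col6a3 was at 670.3, 963, 881, 942 and 949 CPM while Col6a1 was at 1163, 1092, 962, 924 and 1032 CPM. Celecoxib 1 thus had the lowest Col6a3 and the highest Col6a1 of all 15 libraries.

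The type V chains Col5a1 and Col5a2 were more loosely related, with r = 0.55 and rho = 0.632 (permutation p = 0.0304 and 0.0132, adjusted p = 0.0456 and 0.0198), and r = 0.502 without vehicle 4 and rofecoxib 2. Col8a1 and Col8a2 had r = 0.253 and rho = 0.346 (permutation p = 0.365 and 0.206, adjusted p = 0.469 and 0.241). Their ratio per kb ranged from 3.17 in rofecoxib 2 to 12.2 in rofecoxib 5, the widest of the 9 pairs.

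**Figure D3:**
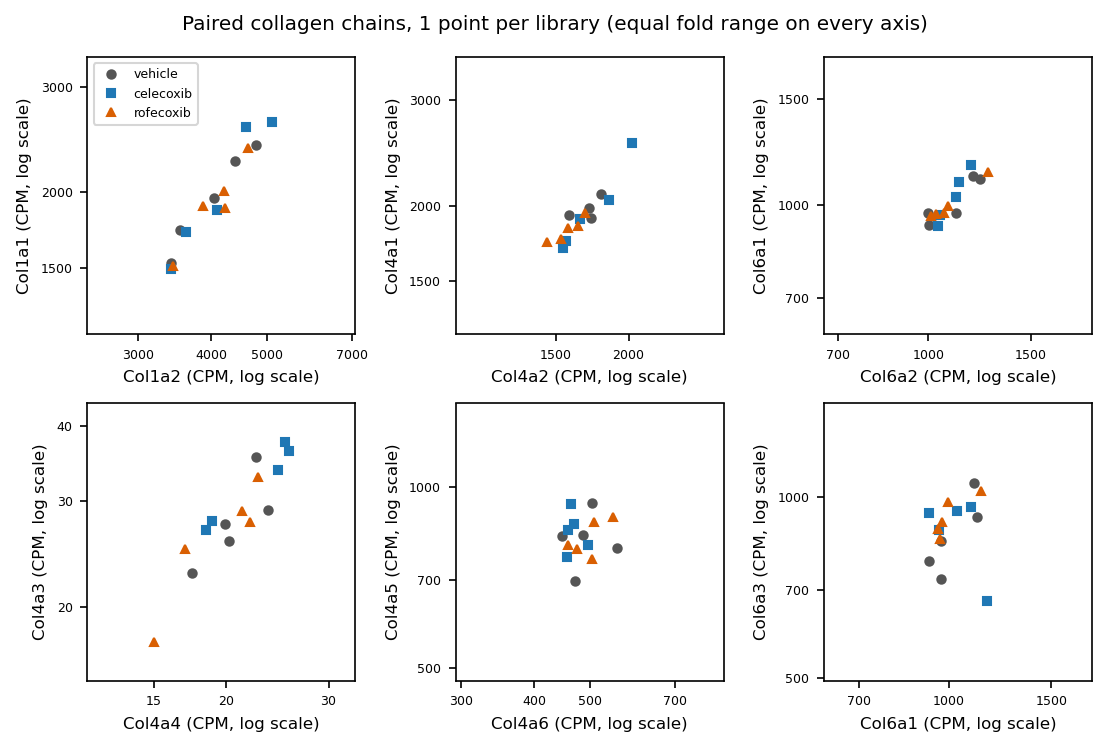
Levels of 6 chain pairs in CPM (both axes on a log scale with the same fold range in every panel), 1 point per library and symbols by group. Points of Col1a1 and Col1a2, Col4a1 and Col4a2, Col6a1 and Col6a2, and Col4a3 and Col4a4 lie along a diagonal, those of Col4a5 and Col4a6 do not, and celecoxib 1 lies apart in the panel of Col6a3 at 670.3 CPM.

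Below the abundant tier, 8 tested members had a highest library over 5 times the lowest, namely Col11a1, Col13a1, Col24a1, Col28a1, Col2a1, Col5a3, Col6a4 and Col6a5. The median SD within groups, on the log2 scale, was 0.277 over the 39 tested collagens beside 0.177 over all 15134 tested genes. Col28a1, a collagen known from Schwann cells of peripheral nerves, was 1 of several members that were high in the same libraries. In the vehicle libraries 1 to 5 Col28a1 was at 3.92, 6.32, 5.72, 12.2 and 6.70 CPM, in the celecoxib libraries at 3.29, 8.05, 3.77, 24.8 and 5.18 CPM, and in the rofecoxib libraries at 4.19, 3.04, 9.11, 3.37 and 21.5 CPM. Celecoxib 4, rofecoxib 5 and vehicle 4 were the 3 highest, and the groups overlapped.

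Col5a3, a type V chain, was highest in the same 3 libraries. It was at 17.4, 16.5, 14.3, 28.5 and 15.6 CPM in the vehicle libraries, at 9.97, 17.6, 6.24, 51.8 and 14.5 CPM in the celecoxib libraries and at 13.5, 9.18, 21.2, 8.35 and 38.3 CPM in the rofecoxib libraries. Col11a1, a type XI chain, reached 7.18 CPM in celecoxib 4, 6.16 in rofecoxib 5 and 3.68 in vehicle 4, and lay between 0.467 and 2.99 CPM in the other 12. The untested Col9a2, a FACIT chain with at most 21 counts in a library, had its highest values in those 3 libraries as well, at 0.673, 0.379 and 0.413 CPM, and 0.280 CPM in the next. The 3 Schwann cell markers (Sox10, Mbp and Mal) summed to 188 CPM in celecoxib 4, 138 in rofecoxib 5 and 98.9 in vehicle 4, and to between 10.6 and 57.5 CPM in the other 12, with none of the 3 at 0 in any library. The 5 sympathetic neuron markers summed to 352, 236 and 141 CPM in those same 3 libraries and to between 0.161 and 107 CPM elsewhere, and Th, Dbh and Chrna3 among them were at 0 in at least 1 library. These 4 collagens were singled out after their values were seen, each treatment group holds 1 of the 3 libraries, and the part of nerve tissue in the collagen values was not tested.

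**Figure D4:**
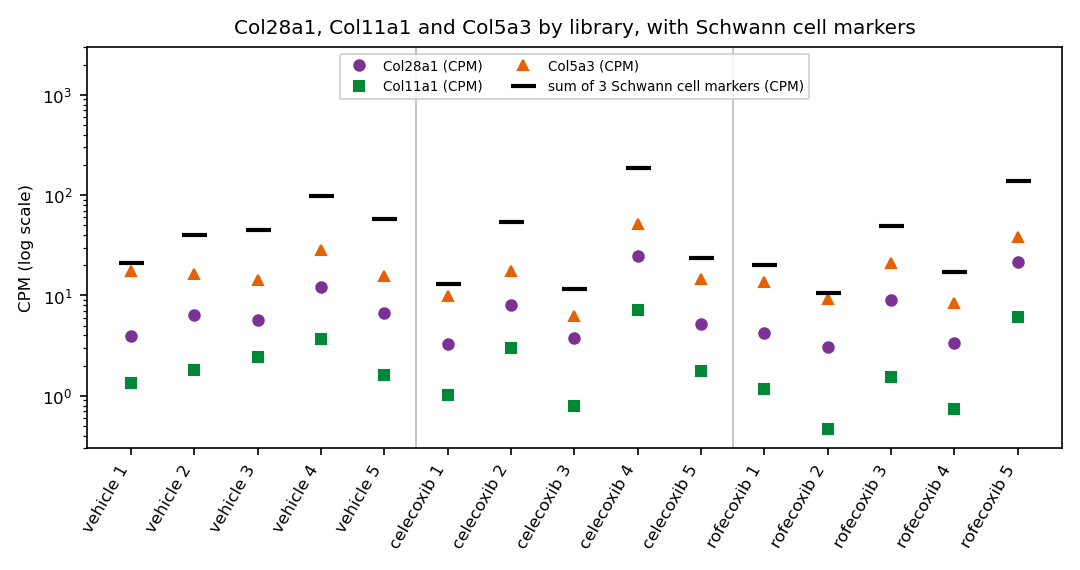
Levels of Col28a1, Col11a1 and Col5a3 and the summed level of 3 Schwann cell markers, in CPM on a log axis, for each of the 15 libraries, with vertical lines between the groups. All 4 series peak in vehicle 4, celecoxib 4 and rofecoxib 5, where the marker sum is 98.9, 188 and 138 CPM.

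The 150 bases before the RefSeq start of Col28a1, Col11a1 and Col5a3 are shown because the genes were high in the same libraries (GRCm38.p6, each on its gene's strand). Col28a1 lies on the minus strand (chr6:8192618-8192767), Col11a1 on the plus strand (chr3:114030390-114030539) and Col5a3 on the minus strand (chr9:20815068-20815217). Capitals mark CCAAT, or ATTGG as read on the other strand.
Col28a1: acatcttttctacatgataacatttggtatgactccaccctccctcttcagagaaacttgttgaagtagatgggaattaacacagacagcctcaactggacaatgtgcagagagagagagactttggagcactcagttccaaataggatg
Col11a1: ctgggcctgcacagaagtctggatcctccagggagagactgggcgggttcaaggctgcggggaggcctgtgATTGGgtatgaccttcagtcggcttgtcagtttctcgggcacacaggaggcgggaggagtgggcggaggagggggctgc
Col5a3: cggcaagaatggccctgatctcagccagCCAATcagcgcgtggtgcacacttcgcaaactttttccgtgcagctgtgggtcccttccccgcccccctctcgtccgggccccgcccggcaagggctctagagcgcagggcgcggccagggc

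CCAAT occurred on either strand in the 250 bases before the start in 13 of 38 collagen windows (34.2%) and in 33.8% of all 32851 windows of that length. TATAAA, or TTTATA on the other strand, occurred in 5 of 38 (13.2%) and in 12.4% of all. Matches of the 2 motifs can share only an end base, both motifs were chosen after the sequences were seen, and the collagen shares lie close to those of all genes. The Col11a1 and Col5a3 windows held CCAAT and the Col28a1 window did not.

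Col6a5 had a different pattern. It was at 17.8, 1.88, 2.05, 3.17 and 1.77 CPM in the vehicle libraries, at 1.93, 8.27, 0.788, 3.08 and 5.99 CPM in the celecoxib libraries and at 3.10, 0.367, 3.03, 0.964 and 3.19 CPM in the rofecoxib libraries. Vehicle 1 alone stood above 10 CPM. Rofecoxib against vehicle therefore gave a log2 fold change of -1.32 ± 0.80 for this gene (SE), which became -0.06 without vehicle 1. Col6a4 ranged from 0.0334 CPM in rofecoxib 2 to 2.40 CPM in celecoxib 5.

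No collagen gene passed the test between celecoxib and vehicle. With edgeR (quasi-likelihood F test, p adjusted over 15134 genes by Benjamini-Hochberg, threshold 0.05), 0 of 39 tested collagens were called, and 0% of all tested genes (0 genes). At an unadjusted p under 0.05 there was 1 of the 39, Col11a2, beside 12.5% of all tested genes (1896 genes). DESeq2's Wald test called 126 genes, 1 of them a collagen, and limma-voom called 0. The collagens' median log2 fold change was 0.02, with 23 estimates above 0 and 16 below, beside a median of 0.01 over all tested genes. Without celecoxib 1, edgeR again called 0 collagens, and 20 estimates lay above 0 and 19 below. In that fit 2 collagens had an unadjusted p under 0.05, beside 1531 of 15315 tested genes. In CPM, 0 collagens had groups that did not overlap, beside 1.3% of all tested genes.

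The main structural chains were estimated close to 0 with celecoxib. Col1a1 differed from vehicle by a log2 fold change of 0.06 ± 0.17, Col1a2 by 0.05 ± 0.12 and Col3a1 by 0.02 ± 0.18 (SE, edgeR adjusted p = 0.92, 0.909 and 0.977). Col4a1 gave 0.04 ± 0.09, Col4a2 0.05 ± 0.08 and Col18a1 0.07 ± 0.08. Without celecoxib 1, Col4a1 became -0.05 and Col4a2 -0.0075. For the 15 genes of the higher tier, the 95% intervals of the fold together spanned 0.754 to 1.34, so folds inside that span remain possible. Further down, Col12a1 gave 0.34 ± 0.22 and Col8a1 0.21 ± 0.28. Without celecoxib 5, which had the highest level of both genes in its group (43.2 and 61.2 CPM), Col12a1 became 0.15 and Col8a1 -0.05.

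Col11a2, the second chain of type XI collagen (chr17:34176180-34203832, mm9), had the smallest p of the family in this comparison. It was at 10.9, 8.62, 11.3, 10.7 and 11.8 CPM in the vehicle libraries, at 5.05, 6.95, 5.55, 8.75 and 8.06 CPM in the celecoxib libraries and at 7.51, 8.01, 7.66, 10.2 and 11.9 CPM in the rofecoxib libraries. Celecoxib and vehicle overlapped only through celecoxib 4 and vehicle 2. The log2 fold change was -0.63 ± 0.17 (SE, edgeR adjusted p = 0.269), a fold of 0.644, and it was -0.53 without celecoxib 1. DESeq2's Wald test gave -0.63 with an adjusted p of 0.0378, and over the other settings and left-out libraries the adjusted p ran from 0.088 to 0.549. Summed brown adipocyte markers ran from 64.7 to 472 CPM in the celecoxib, 346 to 1486 in the vehicle and 170 to 411 in the rofecoxib libraries. Summed cartilage markers ran from 79.5 to 107, 60 to 118 and 72.5 to 124 CPM in the same order. Most of the cartilage sum was Acan, at 45.4 to 107 CPM over all libraries. Hapln1 lay between 7.14 and 18.1 CPM and Sox9 between 2.49 and 6.96. Matn3 reached at most 0.599 CPM and Matn1 at most 0.0622, with Matn1 at 0 in at least 1 library. Celecoxib and vehicle overlapped in both sums, and the part of either in the Col11a2 value was not tested. Next by p were Col7a1 (-0.24 ± 0.14), Col12a1 and Col4a3 (0.21 ± 0.16), and none passed.

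Rofecoxib against vehicle likewise had 0 of 39 collagens called by edgeR and 0% of all tested genes. At an unadjusted p under 0.05 there were 0 collagens beside 5.18% of all tested genes (784 genes), DESeq2's Wald test and limma-voom each called 0 genes, and 0 collagens had groups that did not overlap, beside 1.16% of all tested genes. The median log2 fold change of the collagens was -0.03, with 15 estimates above 0 and 24 below, beside 0.00 over all tested genes. Col1a1 differed by -0.03 ± 0.17, Col3a1 by -0.06 ± 0.18, Col4a1 by -0.08 ± 0.09 and Col18a1 by 0.06 ± 0.08 on the log2 scale. The 95% intervals of the 15 highest genes spanned folds of 0.737 to 1.33. The smallest p-values belonged to Col6a5, Col24a1 (-0.77 ± 0.49), Col11a2 (-0.23 ± 0.17) and Col2a1 (-0.87 ± 0.70), 3 of which have means of 5.34 CPM or less in the vehicle group.

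Celecoxib against rofecoxib compares unequal doses, 30 and 10 mg/kg, and so these treatments rather than the compounds. The test called 0 of 39 collagens by edgeR, beside 0% of all tested genes. At an unadjusted p under 0.05 there was 1 collagen, again Col11a2 (-0.40 ± 0.17, adjusted p = 0.698), beside 6.96% of all tested genes (1053 genes). DESeq2's Wald test called 19 genes and 0 collagens, limma-voom 0 genes, and 0 collagens had groups that did not overlap, beside 1.32% of all tested genes. The median was 0.06, with 27 estimates above 0 and 12 below, beside 0.01 over all tested genes. Without celecoxib 1, 0 collagens were called and 0 had an unadjusted p under 0.05, and 23 estimates lay above 0 and 16 below. Of the type IV chains, Col4a3 gave 0.30 ± 0.16, Col4a2 0.13 ± 0.08 and Col4a1 0.12 ± 0.09, and the Col4a2 and Col4a1 values became 0.07 and 0.01 without celecoxib 1. Col6a4 gave 1.16 ± 0.72 on levels near 1 CPM. For the 15 highest genes the 95% intervals spanned folds of 0.728 to 1.38. This contrast and the preceding ones share libraries, so their values are not independent of each other.

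**Figure D5:**
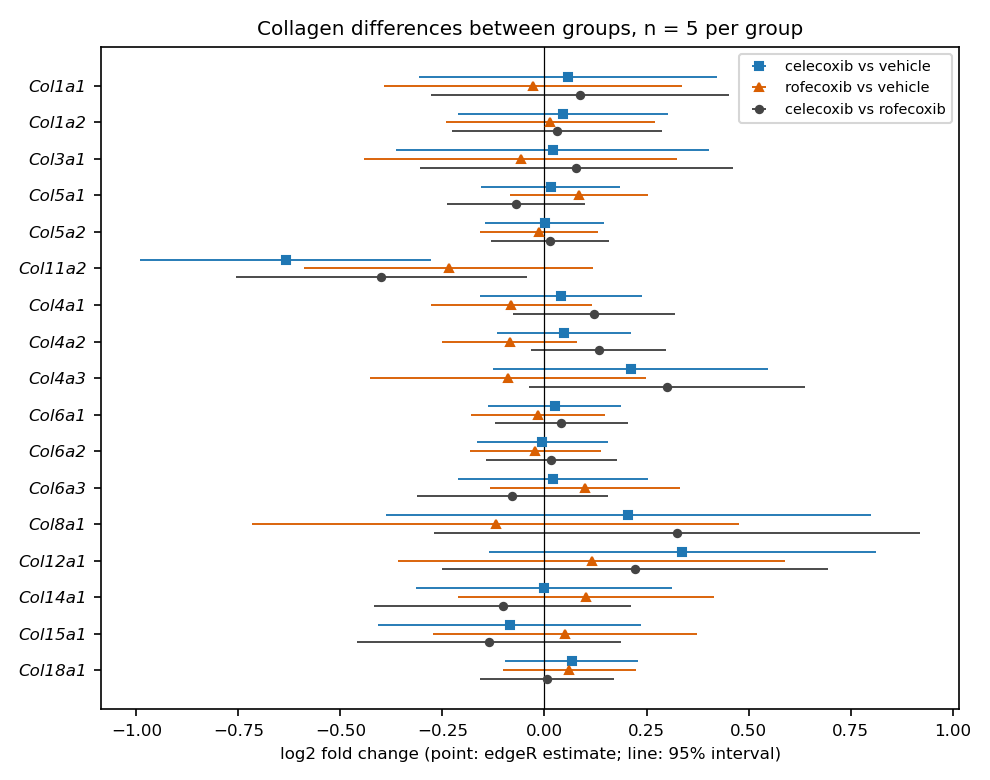
Log2 fold changes for 17 collagen genes in the 3 comparisons (horizontal axis; points are edgeR estimates and lines 95% intervals, 5 libraries per group). The lines of 16 genes cross 0 in all 3 comparisons, and those of Col11a2 do not for celecoxib against vehicle (-0.63) and against rofecoxib (-0.40).

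Genes that make, process, bind or break down collagen were followed beside the chains. Of 57 listed symbols 56 were found and 52 tested, and edgeR called 0 of 52 in each of the 3 comparisons. At an unadjusted p under 0.05 there were 3 for celecoxib against vehicle (Adamts14, Plod2 and Glt25d2), 0 for rofecoxib against vehicle and 4 for celecoxib against rofecoxib (Adamts14, Plod2, Leprel1 and P4ha2), shares no higher than those of all tested genes except in the last. With 1 library left out these numbers ran from 2 to 6, from 0 to 3 and from 3 to 13, the highest without celecoxib 4 or celecoxib 5, without rofecoxib 5 and without celecoxib 4, and edgeR called 0 partner genes each time. The 6 stood beside 2385 of 15234 tested genes (without celecoxib 4) or 2175 of 15334 (without celecoxib 5). The 3 stood beside 662 of 15245 tested genes, and the 13 beside 1519 of 15234. Glt25d2, a glycosyltransferase gene, reached at most 1.46 CPM. All 5 crosslinking enzyme genes (Lox and Loxl1 to Loxl4) had estimates above 0 for celecoxib against vehicle, between 0.16 and 0.34, and none passed. Of all 52 tested partner genes, 36 had estimates above 0 in that comparison. Without celecoxib 1, whose Lox and Loxl3 levels were the highest of the study, Lox turned to -0.16, Loxl3 became 0.01, and Loxl1, Loxl2 and Loxl4 lay between 0.10 and 0.11.

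Adamts14, which cleaves the amino-terminal propeptide of fibrillar procollagens, had the smallest p of the partner genes in every comparison. It was at 30.6, 20.1, 23.6, 38.6 and 36.5 CPM in the vehicle libraries, at 65.5, 38.3, 39.0, 29.2 and 39.0 CPM in the celecoxib libraries and at 24.9, 17.6, 25.5, 22.1 and 21.3 CPM in the rofecoxib libraries. Every celecoxib library was above every rofecoxib library, and vehicle overlapped both. Celecoxib against rofecoxib gave a log2 fold change of 0.92 ± 0.21 (edgeR adjusted p = 0.605), or 0.70 without celecoxib 1. DESeq2's Wald test gave an adjusted p of 0.0204, and over the other settings and left-out libraries it ran from 0.343 to 0.884. Plod2, which hydroxylates lysines of the telopeptides, gave -0.15 ± 0.07 for celecoxib against vehicle and -0.22 ± 0.07 against rofecoxib. Without celecoxib 1, Adamts14 went from 0.50 to 0.30 and Plod2 to -0.09 for celecoxib against vehicle, and Plod2 to -0.17 for celecoxib against rofecoxib. Leprel1, a prolyl 3-hydroxylase gene, was lower in every celecoxib library (28.6 to 48.3 CPM) than in every rofecoxib library (49.3 to 59.1 CPM), with -0.39 ± 0.13 and an edgeR adjusted p of 0.649. Its lowest value, 28.6 CPM, was in celecoxib 1. Of the 52 tested partner genes, 1 (Adamts14) was higher and 1 (Leprel1) lower without overlap in this comparison, beside 1.32% of all tested genes (200 genes). Timp3, an inhibitor of matrix metalloproteinases, gave 0.10 ± 0.06 for rofecoxib against vehicle.

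Celecoxib 1 stood at the end of the range for several of these genes. It had the highest Col4a1 (2547 CPM), Col4a2 (2029 CPM) and Adamts14, the lowest Col6a3 and Col11a2, and the highest Lox (554 CPM, against 161 to 347 in the other 14) and Loxl3 (291 CPM, against 110 to 143). Its P4ha2 (144 CPM) was also the highest, and its Leprel1 (28.6 CPM) and Plod2 (133 CPM) the lowest. It was singled out after its values were seen.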

How the data were processed

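Poly(A)-selected RNA libraries of 15 mouse thoracic aortas, 5 per group, were measured. The authors deposited whole-number counts per gene. Per the submitters' processing notes CASAVA 1.8.2, STAR 2.5.2a and mm9 were used. The counting tool was not given in the sources used here, nor were its annotation and strand setting. Totals of 30937046 to 30967115 counts per library lie so close that a step bringing them to a common total is possible, and the depth before deposit is unknown. Each library was labelled as a separate sample, and p-values measure the spread between these samples. Libraries were prepared over several days with no day per library, and a batch term was therefore left out.

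Genes kept by filterByExpr (15134) were fitted over all 15 libraries with edgeR 4.0.16 in R 4.3.3 (quasi-likelihood, robust, TMM factors from 0.953 to 1.04, common biological coefficient of variation 0.228), and p-values were adjusted by Benjamini-Hochberg over all genes with a threshold of 0.05. DESeq2 1.42.0 and limma 3.58.1 were alternatives, as were other scalings, filters, sample sets and left-out libraries. Intervals cover 95%, and errors derive from the fold change and the F statistic. CPM values use scaled library sizes. The fit was tested on simulated data.

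Lengths are the exons of the transcript with the longest coding sequence in GENCODE M21, matched by gene ID for all 43 members. Merging all exons had been tried first and was replaced after the lengths were seen, because it gave Col1a2 12426 bases against 5348. The design named RefSeq proteins for coding length, and the M21 coding length was used instead. Fold changes are given for 15 chains chosen by role, for called members and, by p, for 4 members and 2 partner genes per comparison; other names were chosen after their values were seen. The members, lists and pairs were chosen with earlier results of these data known. Same-numbered libraries of 2 groups had deviations correlated between -0.72 and 0.775, and the labels do not tie a number to a litter or day, so numbers were not used to pair samples. The closest libraries of a group differed by a chi-square of 13.1 per gene over 14924 genes, so none was a duplicate. Sequences are from RefSeq (GRCm38.p6), except that the Col4a3 start was taken from GENCODE M21, and no coordinate was moved between builds. The Schwann cell list had 5 markers; 2 are not reported here, for a reason unrelated to their values.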

Additional observations from a re-analysis of the deposited data

Results flagged for a closer look

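In 13 of 147 groups of 5 libraries (the CPM of a tested collagen, the ratio of a chain pair, or the collagen share of all counts, in 1 treatment group), a single library lay so far from the rest that its gap to the nearest, divided by the range of the group, passed Dixon's 95% critical value of 0.71. For independent, normally distributed values chance alone gives this in about 1 in 20 groups. The 147 groups share libraries and hold values that were not log-transformed, so that rate need not hold here.

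Celecoxib 4 was the outlying library for Col28a1 (24.8 CPM against at most 8.05 in the other 4), Col5a3 (51.8 against at most 17.6), Col24a1, a minor fibrillar chain (0.738 against at most 0.227), and on the low side Col5a1 (731 CPM against at least 811). Rofecoxib 5 was outlying for Col11a1 (6.16 CPM against at most 1.54), Col22a1, a FACIT chain (1.90 against at most 1.30), and the ratio of Col8a1 to Col8a2 per kb (12.2 against at most 5.27). Vehicle 4 was outlying for Col5a3 (28.5 CPM against at most 17.4). These are the libraries of the highest summed Schwann cell markers, at 188, 138 and 98.9 CPM, and the part of nerve tissue was not tested.

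Rofecoxib 2 was highest for both Col6a1 (1136 CPM against at most 997) and Col6a2 (1266 against at most 1084), the 2 type VI chains that varied together. Celecoxib 1 was low for Col6a3 (670.3 CPM against at least 881). Vehicle 1 was high for Col6a5 (17.8 CPM against at most 3.17). Celecoxib 3 had the highest ratio of Col5a1 to Col5a2 per kb in its group (0.863 against at most 0.808).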

How the results depend on the processing

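By edgeR no collagen fold change passed the adjusted threshold in any comparison, and estimates near 0 changed sign with the setting. Of 1461 values recomputed for 20 or 21 collagen and partner genes per comparison, 1357 kept their sign and their side of the threshold, 102 changed sign and 2 passed only in DESeq2's Wald test (Col11a2 and Adamts14). DESeq2's Wald test called 126 genes for celecoxib against vehicle, 1 of them a collagen, and 19 for celecoxib against rofecoxib, 1 of them a partner gene, where edgeR called 0; the cause was not tested. Fitting only the 10 libraries of celecoxib and rofecoxib left 0 collagens at an unadjusted p under 0.05. The fit with a replicate block gave 2 such collagens for that comparison, and it changed no call of a collagen or partner gene at the adjusted threshold; the numbers are not shown to pair the samples, and Col14a1 became 0.0093 with it for celecoxib against vehicle.

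Leaving out 1 library at a time, edgeR called 0 to 8 genes for celecoxib against vehicle (8 without celecoxib 4) and 0 to 1 for celecoxib against rofecoxib, 0 of them collagens. The collagens at an unadjusted p under 0.05 then numbered 1 to 3 for celecoxib against vehicle, 0 to 1 for rofecoxib against vehicle and 0 to 2 for celecoxib against rofecoxib. The 3 (without vehicle 2) stood beside 1971 of 15327 tested genes and the 1 (without rofecoxib 5) beside 662 of 15245. The 2 stood beside 939 of 15339 (without celecoxib 3) or 919 of 15307 (without rofecoxib 1). The partner genes at that level numbered 8 with the replicate block, 5 with limma-voom and 0 in the 10-library fit for celecoxib against vehicle. Over all tested genes the numbers were 1946 of 15134, 1874 of 15134 and 1326 of 14741. The median of the collagens ran from -0.02 to 0.08, from -0.06 to 0.02 and from -0.0021 to 0.09 in these comparisons, so its sign rested on single libraries.

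Signs turned as follows on the log2 scale, and the cause was not tested. With no scaling factor, celecoxib against rofecoxib gave -0.0066 for Col5a2, -0.0035 for Col6a2 and -0.015 for Col18a1, and celecoxib against vehicle gave -0.0083 for Col5a1 and -0.022 for Col5a2. Celecoxib against vehicle also gave -0.0093 for Col3a1 with limma-voom and -0.00031 for Col5a2 in the 10-library fit. For that comparison Col6a2 became 0.00073 with DESeq2 size factors and with the Wald test, 0.0044 without the filter and 0.0029 with a minimum of 1 CPM. Col14a1 became 0.0053 with DESeq2 size factors and with the Wald test, 0.0088 without the filter, 0.0069 with that minimum and 0.00061 with limma-voom.

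With 1 library left out, the values for celecoxib against vehicle ran for Col1a1 from -0.036 to 0.16, Col1a2 from -0.028 to 0.12, Col3a1 from -0.13 to 0.14, Col5a1 from -0.043 to 0.069, Col5a2 from -0.016 to 0.057, Col4a1 from -0.055 to 0.099 and for Col4a2 from -0.0075 to 0.094. They ran for Col6a1 from -0.011 to 0.074, Col6a2 from -0.032 to 0.046, Col6a3 from -0.024 to 0.11, Col8a1 from -0.054 to 0.39, Col14a1 from -0.067 to 0.081 and for Col15a1 from -0.19 to 0.021. With 1 library left out, the values for rofecoxib against vehicle ran for Col1a1 from -0.11 to 0.064, Col1a2 from -0.0395 to 0.095, Col3a1 from -0.14 to 0.051 and for Col5a2 from -0.043 to 0.045. They ran for Col6a1 from -0.056 to 0.029, Col6a2 from -0.074 to 0.032, Col8a1 from -0.22 to 0.023 and for Col15a1 from -0.059 to 0.16. With 1 library left out, the values for celecoxib against rofecoxib ran for Col1a1 from -0.019 to 0.18, Col1a2 from -0.054 to 0.0904, Col3a1 from -0.079 to 0.18 and for Col5a2 from -0.0099 to 0.052. They ran for Col6a1 from -0.00702 to 0.0905, Col6a2 from -0.013 to 0.078, Col6a3 from -0.12 to 0.0028 and for Col18a1 from -0.0297 to 0.054.

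Depth limits the lowest members: the 4 untested chains reached at most 21 counts in a library. With 5 libraries per group, the intervals of the 15 highest chains together span folds between 0.728 and 1.38.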
